A study of Homo sapiens with 8 samples.

Results

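Release of a secretory granule depends on Rab GTPases, which mark the granule membrane, and on a set of proteins that tether, prime and fuse it with the plasma membrane. The 10 genes described here are 6 Rab GTPases (RAB27A, RAB27B, RAB3D, RAB37, RAB20 and RAB31), the Rab27 effector SYTL1, the priming factor UNC13D, the Sec1/Munc18 protein STXBP2 and the SNARE VAMP8. They were picked by symbol, and all 10 were found among the 37526 gene names common to the 8 libraries. The genes were chosen with their levels in every group already known, so their values are given as a description, without tests.

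RNA was sequenced from NB4, a line of acute promyelocytic leukemia (APL) cells with the fusion protein PML/RARα, in 4 groups of 2 libraries each. Scramble cells carried a stably transduced control vector, which the labels call an empty pLVX-shRNA2-puro vector and the study's methods a scrambled shRNA, and shKDM3B cells stably carried a short hairpin RNA against the histone H3K9 demethylase KDM3B in the same lentiviral backbone. Scramble+ATRA and shKDM3B+ATRA cells were the same lines after all-trans retinoic acid (ATRA), the differentiating agent used against APL. The labels give 1 µM ATRA for 24 or 48 hours without saying which time these libraries had, and the study's methods write the dose in mM. Which of the hairpins was used, and whether each group is 1 transduced pool, is not stated. The study's methods call the libraries of a group replicate experiments without saying whether their cultures were separate, so every P-value below measures only the spread between these libraries.

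A Rab GTPase is bound to GTP when active, and it then recruits effectors to the membrane that carries it. In neutrophils and their precursors, Rab27 on the granule surface binds effectors such as the synaptotagmin-like protein SYTL1 (Slp1) and the priming factor Munc13-4, the product of UNC13D. Fusion itself is carried out by SNAREs, among them VAMP8 on the granule, with syntaxin 11 as a partner whose chaperone is Munc18-2, the product of STXBP2. Inherited loss of RAB27A, UNC13D, STX11 or STXBP2 impairs the release of cytotoxic granules and causes hemophagocytic syndromes. RAB20 and RAB31 act on endosomes and phagosomes rather than on granules.

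The libraries held 9708739 to 33017787 read pairs on genes, and the ATRA-treated libraries were not alike. Among uniquely aligned read pairs, the share given to no annotated gene was 8.49% to 9.62% in the 4 untreated libraries and 9.36% in scramble+ATRA replicate 1. It was 50.0% in scramble+ATRA replicate 2 and 51.4% and 51.0% in the shKDM3B+ATRA libraries. Pairs on the strand opposite a gene may be among them, since the strand setting of the counting is not stated. Pairs that fit more than 1 gene made up 2.57%, 2.40% and 2.39% of these 3 libraries, against 3.91% to 4.31% of the others. Scramble+ATRA replicate 2 and the shKDM3B+ATRA libraries therefore stand apart. For shKDM3B+ATRA against shKDM3B this difference and the treatment cannot be told apart. The untreated files list 56470 gene names and the treated files 56609, with 37526 in common that hold at least 96.4% of the counts of each library. Every comparison of treated with untreated cells, and the difference between the responses, therefore sets counts on 1 list of gene names against counts on another, and the gene list and the treatment cannot be told apart in any of them. Knockdown and control cells were compared within 1 list. KDM3B itself was at 187 and 188 CPM (counts scaled by the size of each library, TMM-adjusted) in scramble, 76.3 and 86.2 in shKDM3B, 196 and 121 in scramble+ATRA and 52.5 and 57.4 in shKDM3B+ATRA cells, so it was lower in every knockdown library than in every control library. Its log2 fold change was -1.21 ± 0.15 (SE) without ATRA (edgeR adjusted p = 0.0680) and -1.53 ± 0.29 with ATRA (edgeR adjusted p = 0.502), where edgeR stands for its quasi-likelihood test and adjustment is by Benjamini and Hochberg, as in all that follows.

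Markers of the cell type were read alongside. Of 6 promyelocyte markers, MPO carried most of the summed level, which was 4452 and 5534 CPM in scramble, 8554 and 9723 in shKDM3B, 844 and 707 in scramble+ATRA and 3224 and 2323 in shKDM3B+ATRA cells, while ELANE stayed at or under 0.36 CPM in all 8 libraries. The 7 granulocyte maturation markers summed to 448 and 429, 265 and 252, 3533 and 3258, and 1493 and 1822 CPM in the same order of groups, with CEACAM8 and LTF at or near 0 throughout. Both sums therefore differed between the groups in each comparison below, and their part in the values of the 10 genes was not tested. The 6 mast cell and basophil markers, carried by HDC and GATA2, summed to 270 and 437, 183 and 290, 38.9 and 35.6, and 16.6 and 25.9 CPM. T and B lymphocyte markers summed to 6.18 and 6.55, 4.21 and 5.58, 21.6 and 25.6, and 13.7 and 16.7 CPM, so they were higher with ATRA in both lines. Erythroid and megakaryocyte markers summed to at most 7.78 CPM, with 5 or 6 of the 7 at 0. In RNA from whole cultures, fewer cells of a type and less RNA per cell cannot be told apart.

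The promoter windows of RAB27B, RAB3D and VAMP8 are shown because these genes had the patterns that the comparisons below turn on: RAB27B was low in 3 of the 4 groups, and RAB3D and VAMP8 were high with ATRA. RefSeq promoters on GRCh38.p14 were matched for 7 of the 10 genes, with 13 windows in all, and each sequence is the 250 bases before a transcription start, 5′ to 3′ on the strand of the gene. Capitals mark matches on either strand to 3 strings of letters. These are AGGTCA, the half-site of retinoic acid response elements, GAGGAA, a form of the PU.1 site, and TGANTCA, the AP-1 site. Other forms of these sites were not searched for. The first RAB27B window lies at chr18:54717607-54717856 and the second at chr18:54828227-54828476, both on the plus strand, that of RAB3D at chr19:11339658-11339907 on the minus strand and that of VAMP8 at chr2:85577336-85577585 on the plus strand.
RAB27B, first start: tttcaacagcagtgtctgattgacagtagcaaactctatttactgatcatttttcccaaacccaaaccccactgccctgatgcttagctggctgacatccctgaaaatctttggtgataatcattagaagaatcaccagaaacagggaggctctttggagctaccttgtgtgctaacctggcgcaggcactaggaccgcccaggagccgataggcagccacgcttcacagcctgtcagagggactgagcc
RAB27B, second start: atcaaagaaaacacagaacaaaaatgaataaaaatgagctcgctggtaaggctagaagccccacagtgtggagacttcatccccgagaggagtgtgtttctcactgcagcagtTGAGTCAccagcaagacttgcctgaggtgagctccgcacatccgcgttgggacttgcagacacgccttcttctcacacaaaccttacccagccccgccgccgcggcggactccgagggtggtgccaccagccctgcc
RAB3D: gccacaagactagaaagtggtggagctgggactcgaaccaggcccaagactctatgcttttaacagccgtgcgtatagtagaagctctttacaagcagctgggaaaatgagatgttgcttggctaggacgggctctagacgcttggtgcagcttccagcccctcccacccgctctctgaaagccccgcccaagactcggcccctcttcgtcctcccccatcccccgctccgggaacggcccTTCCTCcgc
VAMP8: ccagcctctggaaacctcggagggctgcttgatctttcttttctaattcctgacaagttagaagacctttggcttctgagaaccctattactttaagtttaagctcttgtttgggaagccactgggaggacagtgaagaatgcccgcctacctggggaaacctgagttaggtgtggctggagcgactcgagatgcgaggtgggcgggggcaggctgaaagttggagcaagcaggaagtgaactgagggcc
AGGTCA was in none of these 4 windows, GAGGAA (read as TTCCTC on this strand) was in that of RAB3D, and TGANTCA was in the second of RAB27B. Over all 13 windows, AGGTCA was in 1, of RAB27A, GAGGAA in 4, of RAB27A, RAB3D and SYTL1, and TGANTCA in 2, of RAB27A and RAB27B. The windows of RAB31, STXBP2 and VAMP8, which like RAB3D were higher with ATRA, held none of the 3. Among all 34943 windows of 250 bases, AGGTCA was in 12.1%, GAGGAA in 23.6% and TGANTCA in 6.59%. A match is a string of letters and not a bound site. The second RAB27B window and those of RAB3D and VAMP8 lie inside the GENCODE v44 spans of their genes, before starts further in, and none of these windows overlaps an annotated exon.

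RAB27B (ENSG00000041353.10, chromosome 18 from 54717860 to 54895516) encodes the Rab27 paralog known from mast cells, platelets and other secretory cells, and it had the largest difference among the 10 genes in untreated cells. Its level was 52.3 and 45.5 CPM in scramble, 13.7 and 9.91 CPM in shKDM3B, 13.2 and 15.3 CPM in scramble+ATRA and 11.2 and 7.84 CPM in shKDM3B+ATRA cells. Both scramble libraries lay above the other 6, which spanned 7.84 to 15.3 CPM. The log2 fold change was -2.06 ± 0.22 in shKDM3B against scramble cells, a fold of 4.17, and -1.75 ± 0.23 in scramble+ATRA against scramble cells, a fold of 3.35. Knockdown cells with and without ATRA overlapped, at a log2 fold change of -0.25 ± 0.26. With ATRA in both arms the knockdown libraries lay below the control libraries by 0.58 ± 0.30 on the log2 scale, on 78 to 215 counts per library. That log2 fold change was -0.85 without shKDM3B+ATRA replicate 1 and -0.34 without shKDM3B+ATRA replicate 2. The mast cell and basophil markers given above were also lower with ATRA. They overlapped between shKDM3B and scramble cells but were lower without overlap in shKDM3B+ATRA than in scramble+ATRA cells, at 16.6 and 25.9 against 38.9 and 35.6 CPM. Their part in the level of RAB27B was not tested.

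RAB27A (ENSG00000069974.17, chromosome 15 from 55202966 to 55319113), the paralog that serves azurophil granules in neutrophils and melanosomes in melanocytes, varied far less. It was at 208 and 172 CPM in scramble, 143 and 153 in shKDM3B, 174 and 174 in scramble+ATRA and 145 and 170 in shKDM3B+ATRA cells. The scramble libraries differed from each other by more than those with ATRA did, and shKDM3B lay below scramble without overlap, at a log2 fold change of -0.36 ± 0.16. With ATRA in both arms shKDM3B also lay below scramble without overlap, at -0.15 ± 0.13 on the log2 scale. Treated and untreated groups overlapped, at -0.09 ± 0.21 in scramble and 0.14 ± 0.13 in shKDM3B cells.

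Set against each other per kilobase of exon, RAB27A was above RAB27B in every library. RAB27B made up 28.5% and 29.5% of their summed level in scramble, 13.2% and 9.34% in shKDM3B, 10.7% and 12.2% in scramble+ATRA and 10.9% and 6.83% in shKDM3B+ATRA cells. With the length of the canonical transcript in place of all exons the share was 11.0% and 11.5% in scramble and between 2.22% and 4.50% in the other 6 libraries. The size of the share thus depended on the length used, and its order between groups did not: scramble lay above the other groups, which overlapped.

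RAB3D (ENSG00000105514.8, chromosome 19 from 11322068 to 11346270) encodes a Rab of secretory granules in exocrine and hematopoietic cells. It was at 19.8 and 18.7 CPM in scramble, 10.9 and 17.2 in shKDM3B, 28.7 and 46.4 in scramble+ATRA and 21.6 and 26.2 in shKDM3B+ATRA cells. The groups did not overlap in any of the 4 comparisons, yet the replicates of shKDM3B and of scramble+ATRA lay far apart. ATRA went with a higher level in scramble cells (log2 fold change 1.00 ± 0.29) and in shKDM3B cells (0.81 ± 0.24). Leaving out 1 library kept these between 0.58 and 1.30 and between 0.48 and 1.18. Knockdown cells lay below control cells by 0.45 ± 0.25 without ATRA and by 0.65 ± 0.31 with it. The value without ATRA was -0.17 when shKDM3B replicate 1, at 10.9 CPM, was left out and -0.83 when shKDM3B replicate 2 was. The value with ATRA was -0.27 without scramble+ATRA replicate 2, the library at 46.4 CPM, and -0.94 without replicate 1. Of the exon bases of RAB3D, 24.0% also lie in antisense exons of other genes, and the strand setting of the counting is not stated.

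RAB37 (ENSG00000172794.20, chromosome 17 from 74670578 to 74747335), a Rab first found on mast cell granules, had a low and even level. It ran only from 6.88 to 9.19 CPM over the 8 libraries, on 70 to 254 counts. Knockdown cells were below control cells without overlap, by 0.28 ± 0.23 without ATRA and by 0.16 ± 0.25 with it. Antisense exons of other genes cover 21.6% of its exon bases.

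RAB20 (ENSG00000139832.5, chromosome 13 from 110523066 to 110561722) encodes a Rab of maturing phagosomes and endosomes. It was at 16.0 and 16.3 CPM in scramble, 21.4 and 23.0 in shKDM3B, 55.0 and 57.4 in scramble+ATRA and 35.6 and 36.3 in shKDM3B+ATRA cells. Replicates lay closer together than any 2 groups, and no groups overlapped. Knockdown libraries were above the controls without ATRA (log2 fold change 0.46 ± 0.19) and below them with ATRA (-0.64 ± 0.13). The level with ATRA was 3.57 times that without it in scramble cells and 1.68 times in shKDM3B cells, log2 fold changes of 1.83 ± 0.21 and 0.74 ± 0.15. Leaving out any 1 library kept the difference with ATRA between -0.66 and -0.61.

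RAB31 (ENSG00000168461.13, chromosome 18 from 9708275 to 9862551), which acts between the trans-Golgi network and endosomes, was higher with ATRA in both lines. It was at 24.3 and 18.3 CPM in scramble, 19.1 and 24.3 in shKDM3B, 59.1 and 71.7 in scramble+ATRA and 42.7 and 67.3 in shKDM3B+ATRA cells. Treated and untreated libraries did not overlap, whereas knockdown and control libraries did, with and without ATRA. The log2 fold change with ATRA was 1.65 ± 0.25 in scramble and 1.39 ± 0.23 in shKDM3B cells. Between knockdown and control cells it was 0.03 ± 0.22 without ATRA and -0.24 ± 0.28 with it, both smaller than their standard errors.

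The effector SYTL1 (ENSG00000142765.18, chromosome 1 from 27342020 to 27353937) had its lowest values in shKDM3B+ATRA cells. It was at 54.0 and 62.2 CPM in scramble, 61.6 and 64.1 in shKDM3B, 77.4 and 55.6 in scramble+ATRA and 39.9 and 44.6 in shKDM3B+ATRA cells. The shKDM3B+ATRA libraries lay below the other 6, and the scramble+ATRA replicates overlapped the untreated scramble libraries. Against scramble+ATRA the log2 fold change was -0.65 ± 0.22, with -0.38 when scramble+ATRA replicate 1 was left out and -0.87 when replicate 2 was. Against shKDM3B it was -0.52 ± 0.14.

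UNC13D (ENSG00000092929.13, chromosome 17 from 75827225 to 75844785), needed to prime docked granules, showed no difference that its replicates bear out. It was at 113 and 131 CPM in scramble, 100 and 123 in shKDM3B, 166 and 102 in scramble+ATRA and 102 and 104 in shKDM3B+ATRA cells. One library, scramble+ATRA replicate 1, lay above the other 7. The log2 fold change in shKDM3B+ATRA against scramble+ATRA cells was -0.38 ± 0.28, and it was 0.02 without that library. The groups overlapped in each of the 4 comparisons.

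STXBP2 (ENSG00000076944.18, chromosome 19 from 7636772 to 7647873) and VAMP8 (ENSG00000118640.11, chromosome 2 from 85561562 to 85582031), the chaperone of syntaxin 11 and a SNARE of the granule membrane, had the same order of groups with ATRA. STXBP2 was at 82.4 and 71.3 CPM in scramble, 68.9 and 71.7 in shKDM3B, 147 and 129 in scramble+ATRA and 90.5 and 106 in shKDM3B+ATRA cells. VAMP8 was at 196 and 182 CPM in scramble, 181 and 182 in shKDM3B, 351 and 329 in scramble+ATRA and 229 and 252 in shKDM3B+ATRA cells. For both, scramble+ATRA lay highest, shKDM3B+ATRA next and the untreated groups lowest, without overlap between these 3 levels. The log2 fold change with ATRA was 0.88 ± 0.21 for STXBP2 and 0.88 ± 0.20 for VAMP8 in scramble cells, and 0.54 ± 0.14 and 0.46 ± 0.12 in shKDM3B cells. In shKDM3B+ATRA against scramble+ATRA cells it was -0.48 ± 0.15 for STXBP2 and -0.50 ± 0.12 for VAMP8. Leaving out any 1 library kept these between -0.60 and -0.37 and between -0.56 and -0.43. Without ATRA the log2 fold changes between knockdown and control cells, -0.13 ± 0.16 and -0.06 ± 0.14, were smaller than their standard errors.

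Across the 10 genes, the comparisons differed in how many were at least 1.5-fold apart without overlap between the groups. In shKDM3B against scramble cells this was 1 gene lower, RAB27B, and 0 higher, beside 6.03% of all genes tested lower and 5.14% higher by the same rule. In shKDM3B+ATRA against scramble+ATRA cells 3 were lower, SYTL1, RAB3D and RAB20, and 0 higher, beside 9.85% and 12.1% of all genes. In scramble+ATRA against scramble cells 5 were higher, RAB20, RAB31, RAB3D, STXBP2 and VAMP8, and RAB27B was lower, beside 17.5% and 15.1%. In shKDM3B+ATRA against shKDM3B cells 3 were higher, RAB31, RAB3D and RAB20, and 0 lower, beside 25.2% and 19.3%. All 10 genes passed the filter on low counts in each fit, and since they were chosen for their levels, nothing is read from these shares.

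With ATRA in both arms, all 10 genes had a lower mean in knockdown than in control cells, with a median log2 fold change of -0.49 against 0.03 for all genes tested, of which 46.9% were lower. Since the 10 were chosen for their levels, nothing is read from this either. Its size depended on the library left out, with a median of -0.51 without scramble+ATRA replicate 2, -0.40 without shKDM3B+ATRA replicate 1 and -0.58 without shKDM3B+ATRA replicate 2. Leaving out scramble+ATRA replicate 1 keeps the 3 libraries with about 50.0% or more of pairs given to no gene. There 9 of 10 were lower and the median was -0.38, UNC13D being the exception. The lowest values there were those of RAB3D, RAB27B and RAB20, at -0.94, -0.68 and -0.66. Without shKDM3B+ATRA replicate 1, RAB31 was at 0.05 and the other 9 were lower. In untreated cells the median was -0.13, with 7 lower and 3 higher. All genes tested there had a median of 0.0002, and 50% of them were lower.

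The response to ATRA in scramble cells can also be read without scramble+ATRA replicate 2. All 3 libraries then have few pairs given to no gene, though the lists of gene names still differ. There the response was 1.78 for RAB20, 1.48 for RAB31, 0.94 for STXBP2, 0.90 for VAMP8, 0.58 for RAB3D and -1.88 for RAB27B on the log2 scale. These 6 genes kept their direction with either scramble+ATRA library left out, and RAB3D came just under 1.5-fold. SYTL1 and UNC13D changed direction between the scramble+ATRA replicates, at 0.42 and 0.45 without replicate 2 and -0.03 and -0.22 without replicate 1.

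The difference between the 2 responses to ATRA, taken over all 8 libraries, was widest for RAB27B and RAB20. The response was 1.47 ± 0.35 less negative in shKDM3B cells for RAB27B on the log2 scale, and 1.11 ± 0.19 smaller for RAB20. For SYTL1 the difference was -0.77 ± 0.27, for VAMP8 -0.44 ± 0.18 and for STXBP2 -0.36 ± 0.22. The other 5 genes lay between -0.28 and 0.21, at or within their standard errors of 0.21 to 0.42. These values rest on the unequal ATRA-treated libraries, and no subset of them has all groups on 1 side.

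Levels were compared between genes per kilobase of exon only. VAMP8 was far above the others in every group, at 211 ± 10.8 CPM per kilobase (SD, n = 2) in scramble and 380 ± 17.3 in scramble+ATRA cells. In scramble cells RAB27A (16.8 ± 2.21) and UNC13D (15.6 ± 1.64) followed and overlapped, then STXBP2 (12.7 ± 1.29), RAB20 (10.7 ± 0.15) and SYTL1 (10.4 ± 1.04), the last 2 overlapping. RAB27B was at 6.83 ± 0.67, RAB3D at 4.40 ± 0.18 and RAB31 at 3.89 ± 0.77, the last 2 overlapping, and RAB37 was lowest at 1.76 ± 0.08. In untreated shKDM3B cells RAB20 was second at 14.7 ± 0.74, overlapping UNC13D at 14.3 ± 2.08. With ATRA it was second at 37.3 ± 1.12 in scramble and 23.8 ± 0.32 in shKDM3B cells, followed by STXBP2 at 22.7 ± 2.08 and 16.2 ± 1.84. RAB27B and RAB37 held the last 2 places in shKDM3B, scramble+ATRA and shKDM3B+ATRA cells, overlapping in the knockdown groups. With canonical transcript lengths VAMP8 stayed first, and RAB20 took places 4 to 6, so the order of the middle genes depends on the length used. RAB3D and RAB31 also changed places in scramble cells, and RAB27B and RAB37 in shKDM3B and scramble+ATRA cells.

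The genes with the pattern most like RAB27B over the 8 libraries, out of 9788 genes with a mean of at least 5 CPM, were API5, NUCKS1 and SRD5A1, with Pearson's r of log2(CPM + 1) of 0.961, 0.958 and 0.936. For RAB27A they were TRMT6 at 0.960, CNR2 at 0.921 and MED6 at 0.921. For RAB20 they were SLC5A3 at 0.990, the plasma membrane syntaxin STX4 at 0.989 and HBEGF at 0.986. The 8 points fall into 4 groups and share libraries and scaling factors, so these values are a description and carry no p.

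The wider machinery was read from 184 related genes in 7 lists, of which 131 to 136 passed the filter on low counts in each fit. A related gene was called at P under 0.05 and a fold change of at least 1.5 by edgeR's quasi-likelihood test. In shKDM3B against scramble cells 4 of 133 were higher and 5 lower, 6.77% in all beside 7.01% of all genes tested. At an adjusted p under 0.05, 0 of the 9 passed beside 0.0217% of all genes, and DESeq2 called 8 by the same unadjusted rule. LYST, whose loss gives the giant granules of Chediak-Higashi syndrome, was at 97.8 and 138 CPM in scramble and 313 and 226 in shKDM3B cells, a log2 fold change of 1.19 (edgeR adjusted p = 0.122). RAB7B rose by 1.31 (edgeR adjusted p = 0.282) and the autophagosomal SNARE STX17 by 0.78 (edgeR adjusted p = 0.172). The value of RAB7B was 0.82 without scramble replicate 1 and 2.08 without scramble replicate 2. STXBP6 (amisyn), a SNARE-binding protein, had 3 and 0 counts in scramble and 15 and 21 in shKDM3B cells, at least 5.12-fold higher against a floor of 3 counts per library. RAB6B, a Golgi Rab, had the largest fall, from 12.7 and 13.8 to 5.34 and 4.91 CPM (log2 fold change -1.37, edgeR adjusted p = 0.105). SYT11, RAB40B, SYTL3 and RAB3C fell by 1.07, 0.98, 0.97 and 0.91 on the log2 scale. With 1 library left out the log2 fold change of RAB3C ran from -1.19 to -0.55.

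In shKDM3B+ATRA against scramble+ATRA cells 2 of 131 related genes were higher and 3 lower, 3.82% beside 6.79% of all genes. At an adjusted p under 0.05, 0 of the 5 passed, as did 0% of all genes, and DESeq2 called 5 by the unadjusted rule. STX11, the syntaxin that works with STXBP2, was at 5.45 and 5.72 CPM in scramble+ATRA and 1.37 and 2.71 in shKDM3B+ATRA cells, on 13 to 89 counts (log2 fold change -1.44, edgeR adjusted p = 0.508). STX10, a Golgi syntaxin, fell from 38.6 and 38.7 to 22.6 and 20.8 CPM (log2 fold change -0.83, edgeR adjusted p = 0.502). SYT11 fell by 1.03 on the log2 scale, and STXBP6 and STXBP4 rose by 2.21 and 0.87. Each of the 5 lost its call when either shKDM3B+ATRA library was left out, which leaves 1 library in that arm, while its direction stayed. Their log2 fold changes then were -0.89 and -0.76 for STX10, -1.03 and -2.01 for STX11, -1.02 and -1.04 for SYT11, 0.73 and 1.01 for STXBP4 and 1.37 and 2.74 for STXBP6, without replicate 1 and 2 in turn. The count was 14 without scramble+ATRA replicate 1 and 31 without replicate 2.

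ATRA in scramble cells gave 18 higher and 8 lower of 132 related genes, 19.7% beside 25.9% of all genes, of which 7 and 5 had an adjusted p under 0.05 (12.9% of all genes did). The list of SNAREs and Sec1/Munc18 proteins had 9 higher and 0 lower of 40, 22.5% and 0%, beside 15.0% higher and 10.8% lower of all genes, with a median log2 fold change of 0.28 against 0.02 for all genes. No test set the list against other genes. Its members that rose included STX11, at 1.31 and 0.84 CPM in scramble and 5.45 and 5.72 in scramble+ATRA cells (log2 fold change 2.41, edgeR adjusted p = 0.0122), and the endosomal STX12 (1.59, edgeR adjusted p = 0.00714). STXBP5 (tomosyn), which holds syntaxins out of fusion complexes, rose by 0.97 (edgeR adjusted p = 0.0218). SYT2 had 0 counts in both scramble libraries and 15 and 13 with ATRA, at least 7.66-fold higher, and antisense exons cover 27.03% of its exon bases. The Rab GTPase-activating protein gene TBC1D10C rose by 1.31 (edgeR adjusted p = 0.00818) and BLOC1S2, of the complex that builds lysosome-related organelles, by 1.02 (edgeR adjusted p = 0.0807). With 1 library left out the value of BLOC1S2 ran from 0.61 to 1.32.

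Other Rab GTPases had 2 higher and 6 lower of 40 in that comparison, 5.00% and 15.0%, beside the same 15.0% and 10.8% of all genes. RAB7B was at 2.86 and 6.84 CPM in scramble and 0.18 and 0.37 in scramble+ATRA cells (log2 fold change -4.13, edgeR adjusted p = 0.00897). RAB15 was at 14.4 and 13.8 CPM against 1.78 and 1.84 (log2 fold change -2.92, edgeR adjusted p = 0.00222), and RAB6B at 12.7 and 13.8 against 1.04 and 2.40 (log2 fold change -2.93, edgeR adjusted p = 0.00768). Leaving out 1 library kept RAB7B between -4.67 (without scramble+ATRA replicate 2) and -3.34 (without scramble replicate 2) and RAB6B between -3.65 (without scramble+ATRA replicate 2) and -2.43. RAB42 and RAB40B fell by 1.73 and 1.62 on the log2 scale (edgeR adjusted p = 0.0405 and 0.0683). CHML, which brings Rabs to the enzyme that lipidates them, fell by 1.02 (edgeR adjusted p = 0.0253). The exocyst had 0 called of 9, its log2 fold changes lying between -0.35 and 0.52, beside 25.9% of all genes. It had 0 of 9 in the other 3 comparisons too, where 7.01%, 6.79% and 42.2% of all genes were called, and so few genes show little either way.

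**Figure D1:**
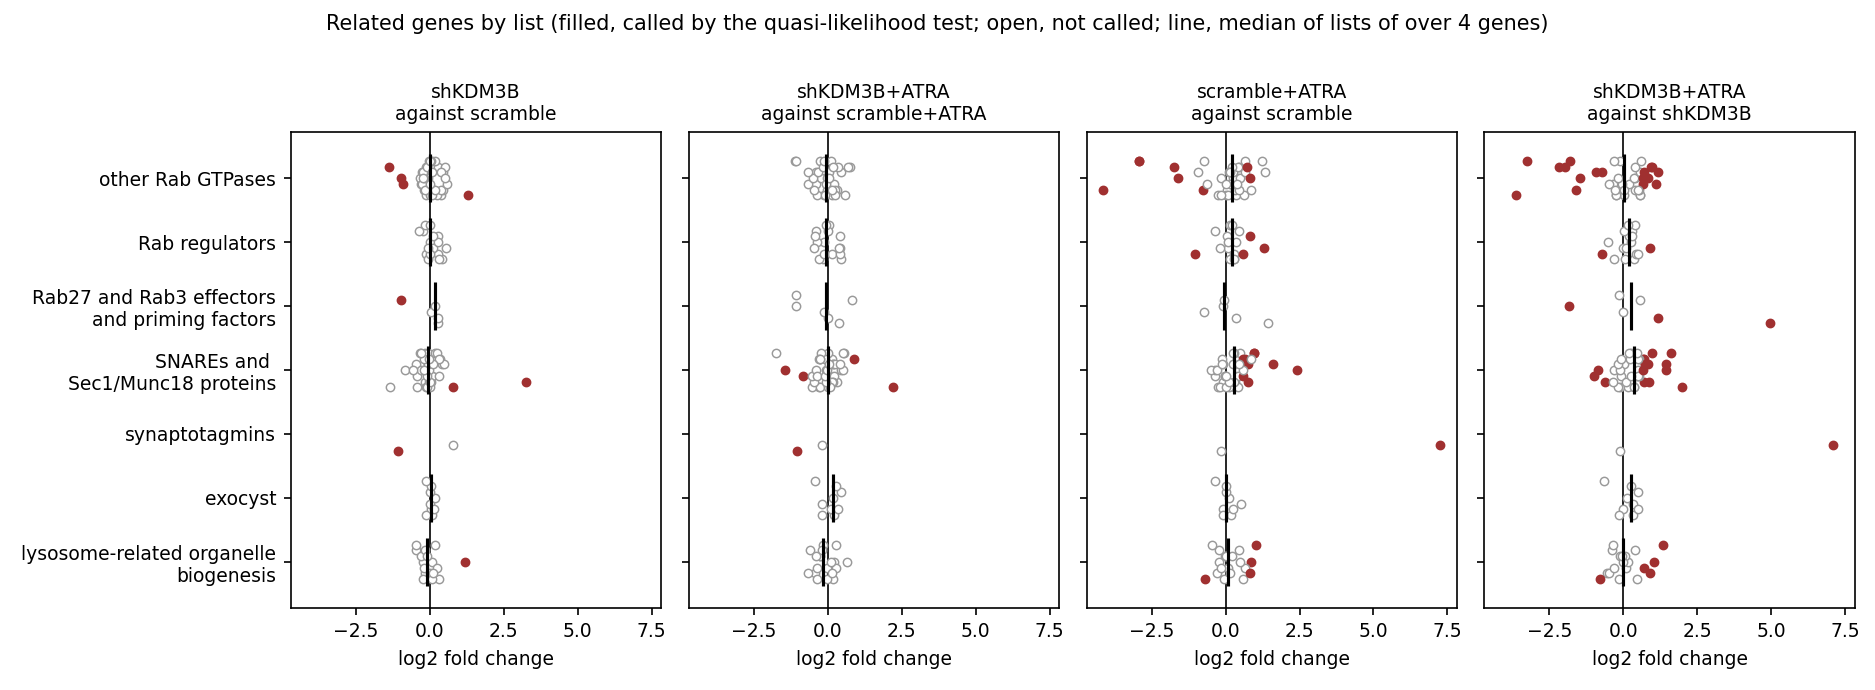
Log2 fold change of each related gene by list in the 4 comparisons, from edgeR. Filled points passed P under 0.05 with a fold change of at least 1.5, and vertical lines are the medians of lists with over 4 genes tested. Genes at 0 counts in a group, such as SYT2 near 7 in the last 2 panels, have fitted values that are no measure of size. SNAREs and Sec1/Munc18 proteins have 9 of 40 filled above 0 and 0 below it in the third panel, beside 15.0% and 10.8% of all genes.

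ATRA in shKDM3B cells gave 29 higher and 15 lower of 133 related genes, 33.1% beside 42.2% of all genes, and 28 and 13 had an adjusted p under 0.05 (40.2% of all genes did). SNAREs and Sec1/Munc18 proteins had 13 higher and 3 lower of 41, and other Rab GTPases 8 higher and 9 lower of 39, beside 24.0% higher and 18.3% lower of all genes. STX12, STX11 and STXBP5 rose here too, by 1.44, 1.44 and 1.61 on the log2 scale (edgeR adjusted p = 7.7e-05, 0.0296 and 1.1e-05), and STXBP6 by 1.98 (edgeR adjusted p = 0.00837). With 1 library left out the value of STX11 ran from 0.87 to 1.89. SYT2 was at least 7.56-fold higher. BAIAP3, a Munc13 relative, rose by 4.96 (edgeR adjusted p = 2.8e-05), from 0.21 and 0.09 to 4.21 and 4.42 CPM. It was at 0 CPM in scramble+ATRA replicate 1 and at 6.73 CPM in replicate 2. Thus it was above 0.21 CPM only in the 3 libraries with many pairs given to no gene. RAB7B, RAB15, RAB6B and RAB42 fell by 3.64, 3.25, 2.19 and 1.96, and MYO7A and RAB24 by 1.82 and 1.80. Without shKDM3B+ATRA replicate 1 the value of RAB24 was -2.44, and that of STXBP6 was 1.13 and no longer called.

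The response to ATRA differed between the lines at P under 0.05 for 5 of 136 related genes, 1 higher and 4 lower in shKDM3B cells, 3.68% beside 4.49% of all genes. By edgeR's interaction test 0 of them, and 0% of all genes, had an adjusted p under 0.05, and DESeq2 gave 4 at P under 0.05. They were STXBP5 at 0.62, STX10 at -0.65, STX4 at -0.42, RAB40C at -0.85 and RAB38 at -0.85, each with an edgeR adjusted p of 1.00.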

How the data were processed

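RNA was extracted with TRIzol and made into TruSeq libraries per the labels. Trim Galore, HISAT2 on hg38 and HTSeq were used by the authors for trimming, alignment and counting. The deposited files hold whole-number counts per gene, not normalized. Picard and SAMtools are named without a role, and the strand setting is not given in the sources used here. The untreated files list 56470 names and the treated files 56609, so treatment and gene list coincide. Levels between groups were taken over the 37526 shared names and are TMM-scaled CPM.

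Each comparison was fitted on its own 4 libraries with edgeR 4.0.16 in R 4.3.3 (filterByExpr, TMM, quasi-likelihood F test), and the difference in response as an interaction over all 8 libraries. The SE of a log2 fold change is its size over the square root of F. Adjusted p-values are Benjamini-Hochberg values over all genes of a fit. DESeq2 1.42.0 was an alternative, as were other scalings, filters, fits and each library left out. The crossed replicate block and canonical transcript lengths were added after seeing the data. The fits were tested on simulated data, no outcome of which is given here or used as support.

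The 10 genes, the related lists and the tests were chosen with earlier results of these data known. The genes named are all 10, KDM3B, up to 6 related genes called with the largest change in each direction per comparison, and the 3 genes most like RAB27A, RAB27B and RAB20 by Pearson's r of log2(CPM + 1) among genes with a mean of at least 5 CPM. Floors use 3 counts per library and cover counting error only, not the spread between replicates. With 2 libraries against 2 no exact permutation test can reach 0.05. Positions, exon lengths and overlaps come from GENCODE v44 on hg38.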

Additional observations from a re-analysis of the deposited data

Results flagged for a closer look

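For 4 of the 139 genes among the 10 and the related lists that were tested in both comparisons, 2.88%, every knockdown library lay on one side of the control libraries without ATRA and on the other side with it. Among all 11325 genes tested in both, 371 or 3.28% met the same rule. For RAB20 the log2 fold change between knockdown and control cells with ATRA minus that without it was -1.11. The knockdown libraries lay above the controls at 21.4 and 23.0 against 16.0 and 16.3 CPM without ATRA, and below them at 35.6 and 36.3 against 55.0 and 57.4 CPM with it. This difference was not tested, because RAB20 was among the genes chosen for their levels.

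The related genes RAB38, STX4 and STXBP5 had differences of -0.85, -0.42 and 0.62. RAB38, a Rab of lysosome-related organelles, was at 16.0 and 14.5 CPM in scramble, 20.04 and 20.04 in shKDM3B, 7.97 and 9.68 in scramble+ATRA and 5.37 and 7.44 in shKDM3B+ATRA cells. STX4, a syntaxin of the plasma membrane, was at 31.7 and 32.6, 35.7 and 36.5, 48.4 and 47.2, and 39.3 and 40.997 CPM in the same order. STXBP5 was at 43.4 and 44.6, 38.5 and 43.2, 87.6 and 81.2, and 123 and 118 CPM. By edgeR's interaction test their P-values were 0.0392, 0.0495 and 0.0122, and the adjusted p was 1.00 for each.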

How the results depend on the processing

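Over settings that keep all libraries, 388 of 400 values of the 10 genes moved by less than the spread between replicates, and 369 of 390 values of other named genes kept their direction and side of the threshold, the remaining 21 losing their call. Counts of related genes called moved by over 1.5 times as follows. With adjusted P-values they were 0 without ATRA and 0 with ATRA between knockdown and control cells, and 12 for ATRA in scramble cells. At a fold of 2 they were 5, 3, 11 and 19 in the 4 comparisons, and the counts of the 10 genes apart were 0, 3 and 1 in the last 3. The shares of all genes apart at a fold of 2 are not given here, so nothing is read from these counts of the 10. With all 8 libraries in one fit, 11 were called in shKDM3B+ATRA against scramble+ATRA cells, and with library size alone 3 differed in response.

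Same-numbered libraries deviated together only in part, with correlations of 0.437, 0.0447, -0.107 and 0.221 in the 4 comparisons, and nothing says that a number marks a shared culture. In fits with the replicate block, 10, 2, 21 and 45 related genes were called and 4 differed in response, so the count in shKDM3B+ATRA against scramble+ATRA cells was 2 instead of 5. A crossed pairing, chosen after seeing the data, gave 29 for ATRA in scramble cells.

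When libraries were left out 1 at a time, the counts of related genes ran from 8 to 18 (18 without scramble replicate 2), from 0 to 31 (0 without either shKDM3B+ATRA library), from 11 to 47 (11 without either scramble library and 47 without scramble+ATRA replicate 1) and from 37 to 55, and those with a different response from 1 to 24 (1 without shKDM3B replicate 2 or shKDM3B+ATRA replicate 1, 3 without scramble replicate 1, 24 without scramble+ATRA replicate 2). The counts of the 10 genes apart ran from 1 to 2, with 2 without shKDM3B replicate 2 (11.1% of all genes lower and apart there, against 6.03% with all libraries), and from 2 to 5, with 5 without shKDM3B+ATRA replicate 2 (13.7% against 9.85%). Groups overlap less easily when 1 of them is a single library, and nothing is read from these counts. The log2 fold change of KDM3B turned direction for ATRA in scramble cells, from -0.59 without scramble+ATRA replicate 1 to 0.073 without replicate 2, and in the difference in response, from -0.64 without scramble+ATRA replicate 2 to 0.068 without replicate 1. Of 240 values of the 10 genes so obtained, 39 moved by more than the spread between replicates, and of 213 values of other named genes 47 lost their call, 3 gained one and 2, those of KDM3B, turned direction. A group left with 1 library was assumed to vary like the others. The cause of these shifts was not tested.

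The lowest counts among the 10 genes were 70 to 254 for RAB37 and 78 to 1085 for RAB27B per library, and what this depth can resolve was not tested. Genes that failed the filter after a library was left out, such as SYT2 in some fits, have no value there.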
